A study of Homo sapiens with 12 samples.

Results

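The HOX genes described here are 38 protein-coding genes of the table with a symbol of HOXA, HOXB, HOXC or HOXD followed by a number, out of 62069 genes counted. The HOXA cluster held 10 of them, the HOXB cluster 10, the HOXC cluster 9 and the HOXD cluster 9. They were measured by RNA sequencing of IMR90 ER:RAS cells, a human lung fibroblast line of fetal origin carrying a RAS oncoprotein that 4-hydroxytamoxifen (4OHT) switches on. RAS activation drives these cells into oncogene-induced senescence, a stable growth arrest. There were 12 libraries in 4 groups of 3: non-induced cells, induced cells given 100 nM 4OHT, and induced cells that also carried 1 of 2 short hairpin RNAs (shXPO7_3 or shXPO7_5) against the nuclear transporter gene XPO7. The labels put the cells at passage 13, 5 days after induction and 7 days in culture, with the medium changed on day 4. They give the day of induction for the non-induced cells too. In the study the cells without a hairpin carried a vector control. All cells came from 1 line, and the sources used here do not say whether the 3 libraries of a group were separate cultures, so p-values measure only the spread between these libraries.

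HOX proteins are transcription factors that bind DNA through a homeodomain, often together with PBX and MEIS partner proteins. The genes sit in clusters, and a gene's place in its cluster matches the part of the body axis where it is active, low paralog numbers toward the head and high numbers toward the tail. Genes with the same number in different clusters are paralogs. Fibroblasts keep much of this pattern in culture as a record of the site they came from, and HOXA5 and several HOXB genes are known from the developing lung. The comparisons below ask whether that pattern held when the cells were made senescent and when XPO7 was reduced.

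The libraries held 28534141 to 60397769 counts. Levels are in CPM, the count relative to its library total, after scaling by TMM factors. These correct for a few genes taking a large part of a library. The order of genes and the ratios of paralogs were compared per kilobase of exon. Sums over genes, cluster shares and the 1 CPM level for a gene in use were not divided by exon length. Long genes weigh more in them. Fibroblast markers (8 genes) summed to between 16700 and 27900 CPM in every library. By the test given below, 5 of the 8 fell on induction and 0 rose, while 26.1% of all genes tested fell and 24.8% rose. Epithelial markers (6 genes) summed to at most 1.27 CPM, endothelial markers (4 genes) to at most 5.27 CPM and immune markers (4 genes) to at most 0.219 CPM. XPO7 itself stood at 134 CPM in non-induced, 137 CPM in induced, 27.7 CPM in shXPO7_3 and 52.2 CPM in shXPO7_5 cells, a fall against induced cells of 4.94-fold and 2.62-fold. A gene was called where the adjusted p was under 0.05 in edgeR's quasi-likelihood test, with Benjamini-Hochberg adjustment over the 15284 genes that passed a filter on low counts.

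The homeoboxes of HOXA2 and HOXB2 are printed because these paralogs moved in opposite directions, and show how far their coding sequences can be told apart. HOXA2 (ENSG00000105996) lies on the minus strand at chr7:27100354-27102811 and HOXB2 (ENSG00000173917) on the minus strand at chr17:48540894-48544989 (GRCh38, GENCODE v29). Each homeobox is the coding stretch of 180 bases for the 60 residues of the homeodomain, read 5′ to 3′ along the transcript, with the bases that differ between the paralogs in capitals.
HOXA2 homeobox: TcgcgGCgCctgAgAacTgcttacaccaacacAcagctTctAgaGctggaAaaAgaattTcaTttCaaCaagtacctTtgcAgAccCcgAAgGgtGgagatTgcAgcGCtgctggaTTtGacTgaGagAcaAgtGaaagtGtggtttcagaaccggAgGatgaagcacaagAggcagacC
HOXB2 homeobox: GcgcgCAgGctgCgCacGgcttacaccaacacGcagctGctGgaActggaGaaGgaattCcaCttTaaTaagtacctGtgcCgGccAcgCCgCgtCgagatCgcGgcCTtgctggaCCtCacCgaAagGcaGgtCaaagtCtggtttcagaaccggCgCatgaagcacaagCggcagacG
The 2 stretches shared 138 of 180 bases (76.7%) and encoded 59 of 60 residues alike. The longest run of bases shared by the whole transcripts, of 1814 and 1562 bases, was 17. HOXA3 and HOXB3 were closer, with 163 of 180 homeobox bases alike (90.6%) and a longest shared run of 32 bases.

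Promoters are shown for HOXA2, HOXA6 and HOXA7, which had the 3 lowest log2 fold changes among the HOX genes on induction. The sequences are from RefSeq (GRCh38.p14), which had an entry for 20 of the 38 HOX genes, and span 250 bases before to 50 bases after the annotated start. In GENCODE v29 the HOXA6 and HOXA7 genes begin farther upstream, at chr7:27150603 and chr7:27157936. The windows of these 2 genes thus do not cover every annotated start. All 3 are on the minus strand and are written 5′ to 3′ along the gene. Capitals mark matches, on either strand, to TGATNNAT (a core bound by HOX and PBX proteins together), CCAAT or GGGCGG (the GC box). The lengths searched were the same for all 34943 promoters, and matches to GGGCGG may overlap.
HOXA2 promoter, chr7:27102634-27102933: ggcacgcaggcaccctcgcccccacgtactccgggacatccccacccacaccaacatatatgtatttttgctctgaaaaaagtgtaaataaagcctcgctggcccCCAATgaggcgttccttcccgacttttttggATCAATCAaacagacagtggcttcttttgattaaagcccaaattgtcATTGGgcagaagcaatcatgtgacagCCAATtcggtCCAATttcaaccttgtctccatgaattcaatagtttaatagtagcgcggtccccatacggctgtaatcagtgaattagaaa
HOXA6 promoter, chr7:27147725-27148024: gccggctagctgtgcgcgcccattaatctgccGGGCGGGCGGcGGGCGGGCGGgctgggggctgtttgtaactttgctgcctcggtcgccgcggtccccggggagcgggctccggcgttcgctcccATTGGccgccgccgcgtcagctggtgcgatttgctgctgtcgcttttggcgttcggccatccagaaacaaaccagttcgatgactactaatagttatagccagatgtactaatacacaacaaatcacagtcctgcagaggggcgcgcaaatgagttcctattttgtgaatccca
HOXA7 promoter, chr7:27156626-27156925: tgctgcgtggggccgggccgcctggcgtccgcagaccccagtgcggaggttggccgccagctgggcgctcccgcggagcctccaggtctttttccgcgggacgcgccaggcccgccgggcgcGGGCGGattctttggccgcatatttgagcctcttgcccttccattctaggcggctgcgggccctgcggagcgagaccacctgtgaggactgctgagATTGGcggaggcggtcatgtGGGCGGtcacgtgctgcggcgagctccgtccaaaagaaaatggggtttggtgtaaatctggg
The HOXA2 promoter held 1 match to TGATNNAT, 4 to CCAAT and none to GGGCGG. The HOXA6 promoter held 4 matches to GGGCGG and 1 to CCAAT, and the HOXA7 promoter 2 and 1. TGATNNAT matched 7.4% of all promoters, CCAAT 34.6% and GGGCGG 44.9%. None of the 3 matched TGANTCA (AP-1), TATAAA or AGGTCA (a nuclear receptor half-site), which matched 7.7%, 11.6% and 13.8% of all promoters. CpG pairs numbered 11 in the HOXA2, 29 in the HOXA6 and 31 in the HOXA7 promoter, against a median of 14. All 3 promoters thus held CCAAT matches, but these were not particular to genes that fell. The promoters of HOXA9, HOXC4 and HOXC5, not called on induction, and of HOXD1, HOXD3 and HOXD4, near the floor, also held them. Those of HOXA11, HOXD8 and HOXD11 did not. The HOXA6 and HOXA7 promoters differed from the HOXA2 promoter in holding the GC box and lacking the core bound by HOX and PBX proteins.

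In non-induced cells 13 HOX genes were in use, meaning at least 1 CPM in every library: HOXA2 to HOXA5 and HOXA7, HOXB2 to HOXB6 and HOXB8, and HOXC6 and HOXC8. All carry paralog numbers from 2 to 8. Induced cells had 11 in use. The 2 that dropped below 1 CPM in at least 1 library were HOXA2 and HOXA4, and no HOX gene came into use. The shXPO7_3 cells had the same 11 in use as induced cells, and the shXPO7_5 cells had these 11 and HOXC4. With at least 0.5 CPM the numbers were 15, 14, 14 and 14, and with at least 2 CPM they were 12, 9, 9 and 9.

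The HOXB cluster supplied most of the summed HOX CPM, which was not divided by exon length. It made up 85.9% ± 0.459 (SD, n = 3) of the HOX CPM in non-induced and 90.3% ± 0.271 in induced cells. The HOXA share was 11.2% ± 0.573 and 7.05% ± 0.141, and the HOXC share 2.92% ± 0.159 and 2.62% ± 0.288. Summed HOXA level was 31.55, 32.3 and 27.3 CPM in the 3 non-induced libraries and 16.4, 16.9 and 16.7 CPM in the 3 induced libraries. The HOXA sums did not overlap. The summed HOXB level went from 232 ± 7.82 CPM to 213 ± 2.1 CPM, a ratio of 0.917, against 0.548 for HOXA and 0.782 for HOXC. The HOXA, HOXB and HOXC sums were all lower in every induced than in any non-induced library, and an exact two-sided permutation test gave p = 0.1 for each, the smallest that 3 against 3 can reach. As these are bulk samples, fewer cells expressing a gene and less RNA per cell cannot be told apart.

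Per kilobase of exon, the level in non-induced cells was 24.9 ± 1.05 CPM for HOXB5, 17.3 ± 0.798 for HOXB6, 14.7 ± 0.675 for HOXB2, 10.3 ± 0.231 for HOXB3 and 8.08 ± 0.838 for HOXA5 (SD, n = 3), and these 5 led the order. Each step in it was larger than the SD of either neighbour. Over the 11 genes in use in every group, the order of these levels in induced cells had a Spearman correlation of 0.991 with that in non-induced cells. Between induced and shXPO7_3 cells it was 0.991 and between induced and shXPO7_5 cells 0.982. These are correlations across genes, which are not replicates, and they are given as a description. They leave out HOXA2 and HOXA4, which were in use only in non-induced cells. Keeping only genes in use in every group favours a high correlation. In induced cells HOXB2, at 23.6 ± 0.813 CPM per kilobase, stood above HOXB6, at 17.2 ± 0.613. It lay below HOXB5, at 24.4 ± 0.209, by less than its own SD but by more than that of HOXB5.

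**Figure D1:**
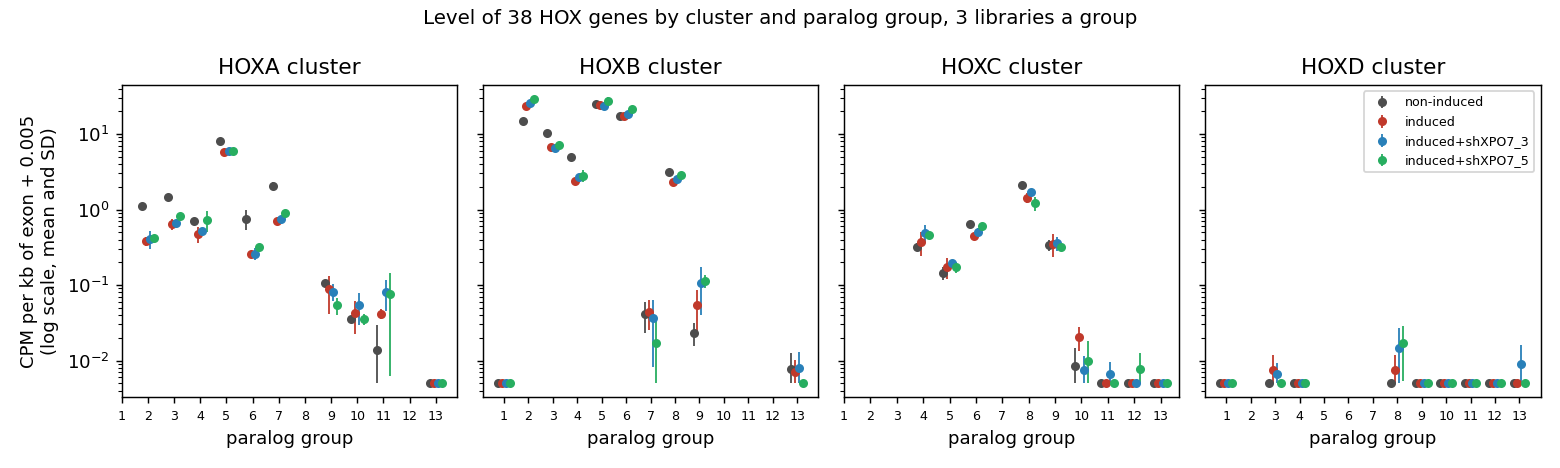
Mean level of each of the 38 HOX genes in CPM per kilobase of exon (log axis, 0.005 added so that genes at 0 can be drawn), by cluster and paralog group, with the SD over 3 libraries for each of the 4 groups. Genes of paralog groups 2 to 8 in the HOXA, HOXB and HOXC clusters carried the signal, and all 9 HOXD genes lay at the bottom of the axis in every group.

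The HOXD cluster was near the floor in every group, and the tail-end genes stayed under 1 CPM. The 9 HOXD genes together had 10 counts in all 12 libraries, out of 452045963, and 6 of them had none. Of the 38 HOX genes, 19 did not pass the filter on low counts: all 9 HOXD genes, HOXA10, HOXA11 and HOXA13, HOXB1, HOXB7 and HOXB13, and HOXC10 to HOXC13. Among the 19, 16 had fewer than 10 counts over the 12 libraries, and 9 had none. HOXA10 had 63 counts, HOXA11 52 and HOXB7 20. A gene with no count in a group can still be present at up to 0.0275 CPM in non-induced, 0.0262 CPM in induced, 0.0233 CPM in shXPO7_3 and 0.0302 CPM in shXPO7_5 cells (3 counts over the group, counting error only). The level of HOXB7 is uncertain. Its annotated span overlaps HOXB8 and HOXB9, and the identifier just before it in the table, ENSG00000120087, could be given no symbol and held 266 to 489 counts in each library (7.96 to 11 CPM), against 0 to 4 for HOXB7. Whether those counts are HOXB7 reads could not be settled, and they are in no HOX value, sum or list of genes in use given here. The 16 genes of paralog groups 9 to 13 summed to 1.06 ± 0.114 CPM in non-induced and 1.23 ± 0.229 CPM in induced cells, and none of them was in use in any group. HOXC9 made up much of that sum, with group means of 0.520 to 0.593 CPM.

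On induction 1 HOX gene rose, 11 fell and 7 were not called, of the 19 that passed the filter. Of all genes tested, 50.9% were called, 24.8% higher and 26.1% lower, so that 12 of 19 (63.2%) is to be read against a background in which calls were common. The median log2 fold change of the 19 was -0.51, against -0.00675 over all genes. With GC content and length corrected for, 1 HOX gene rose and 10 fell, while 64.8% of all genes were called. The median log2 fold change of the HOX genes was then -0.39. The 3 libraries of each group did not overlap for 12 of the 19 HOX genes, against 63.2% of all genes tested. By cluster, 6 HOXA genes fell of 7 tested, 1 HOXB gene rose and 3 fell of 7, and 2 HOXC genes fell of 5. The median log2 fold changes were -1.2 for HOXA, -0.03 for HOXB and 0.072 for HOXC.

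**Figure D2:**
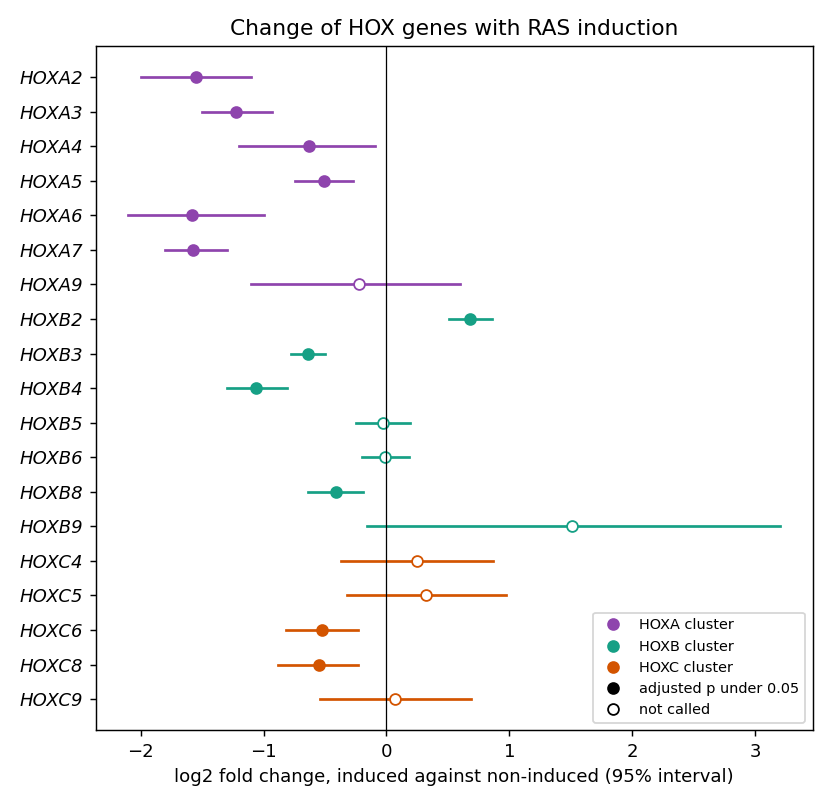
Log2 fold change of the 19 tested HOX genes in induced against non-induced cells, with 95% intervals from edgeR. Filled circles mark adjusted p under 0.05. Of the filled circles HOXB2 lies right of 0 and the other 11 lie left of it, with HOXA6, HOXA7 and HOXA2 farthest left.

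The gene that rose, HOXB2, is of a head-end paralog group. HOXB2, a gene of the hindbrain and pharyngeal arches, stood at 36.1, 34.2 and 33.0 CPM in the non-induced libraries and at 56.5, 53.1 and 56.1 CPM in the induced ones. Every induced library lay above every non-induced one. The log2 fold change was 0.68 (SE 0.08, adjusted p = 1.69e-05).

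The steepest falls were in the HOXA cluster, at HOXA2, HOXA3, HOXA6 and HOXA7. HOXA2, the paralog of HOXB2 that specifies the second pharyngeal arch, went from 2.50, 3.01 and 2.55 CPM to 1.07, 0.886 and 0.807 CPM. HOXA3, needed for the thymus and parathyroid glands, went from 6.73, 6.55 and 5.58 CPM to 3.17, 2.76 and 2.24 CPM. HOXA7, a gene of the trunk, went from 5.59, 4.93 and 4.45 CPM to 1.56, 1.84 and 1.65 CPM. In all 3 the lowest non-induced library was well above the highest induced one. HOXA6, a neighbour of HOXA7 with low levels throughout, went from 0.864, 1.29 and 0.736 CPM to 0.328, 0.319 and 0.323 CPM, and its induced libraries were nearly equal. The log2 fold changes were -1.55 for HOXA2 (SE 0.19, adjusted p = 2.19e-05), -1.22 for HOXA3 (SE 0.13, adjusted p = 7.86e-06), -1.58 for HOXA6 (SE 0.25, adjusted p = 0.000233) and -1.57 for HOXA7 (SE 0.12, adjusted p = 5.24e-07).

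The other 2 HOXA genes that fell moved less. HOXA5, whose loss impairs lung development, went from 14.2, 15.0 and 12.2 CPM to 8.90, 9.71 and 10.5 CPM, a log2 fold change of -0.51 (SE 0.11, adjusted p = 0.00173). HOXA4 went from 1.20, 1.17 and 1.33 CPM to 0.847, 0.992 and 0.605 CPM, a log2 fold change of -0.63 (SE 0.25, adjusted p = 0.0494). The groups did not overlap for either gene. HOXA4 lay at the edge of the threshold and was called in 3 of 14 alternative analyses, with adjusted p between 0.0312 and 0.263. HOXA9, at 0.278, 0.291 and 0.340 CPM and then 0.382, 0.106 and 0.262 CPM, overlapped between the groups and was not called.

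In the HOXB cluster 3 genes fell, and the abundant central genes HOXB5 and HOXB6 were not called. HOXB3 went from 78.3, 77.6 and 75.0 CPM to 50.5, 49.4 and 48.4 CPM, a log2 fold change of -0.64 (SE 0.066, adjusted p = 5.61e-06). HOXB4, known for its part in blood stem cell growth, went from 18.5, 19.9 and 17.4 CPM to 8.58, 9.35 and 8.91 CPM, a log2 fold change of -1.06 (SE 0.11, adjusted p = 8.2e-06). HOXB8 went from 6.51, 6.29 and 6.29 CPM to 4.42, 5.17 and 4.76 CPM, a log2 fold change of -0.41 (SE 0.10, adjusted p = 0.00521). Each of these fell with no overlap between groups. HOXB5, which acts in airway branching, stood at 51.9, 52.1 and 48.3 CPM without and at 49.4, 49.7 and 50.2 CPM with induction. HOXB6 stood at 44.8, 47.3 and 43.2 CPM and at 43.5, 44.2 and 46.6 CPM. Both overlapped, and their 95% intervals for the log2 fold change ran from -0.25 to 0.19 and from -0.20 to 0.18. HOXB9 had a mean of 0.0476 CPM without and 0.127 CPM with induction (log2 fold change 1.51, SE 0.77, adjusted p = 0.121).

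In the HOXC cluster HOXC6 and HOXC8, genes of the thoracic region, fell. HOXC8 went from 4.01, 3.88 and 4.08 CPM to 2.38, 2.62 and 3.13 CPM, a log2 fold change of -0.55 (SE 0.15, adjusted p = 0.00839). HOXC6 went from 2.47, 2.14 and 2.07 CPM to 1.47, 1.63 and 1.53 CPM, a log2 fold change of -0.53 (SE 0.14, adjusted p = 0.00666). Neither overlapped between the groups. HOXC4, HOXC5 and HOXC9 were not called, with means of 0.862, 0.251 and 0.558 CPM without and 0.993, 0.308 and 0.585 CPM with induction. HOXC4 and HOXC5 share an annotated start in RefSeq, and HOXC4, HOXC5 and HOXC6 share exons, so reads among them may have been divided by the counting. The annotated span of HOXC6 also takes in HOXC8 and HOXC9. In the other clusters HOXB3 spans HOXB4, HOXB5 and most of HOXB6, and HOXA3 spans HOXA4, HOXA5 and HOXA6. Reads among these genes may have been divided too.

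**Figure D3:**
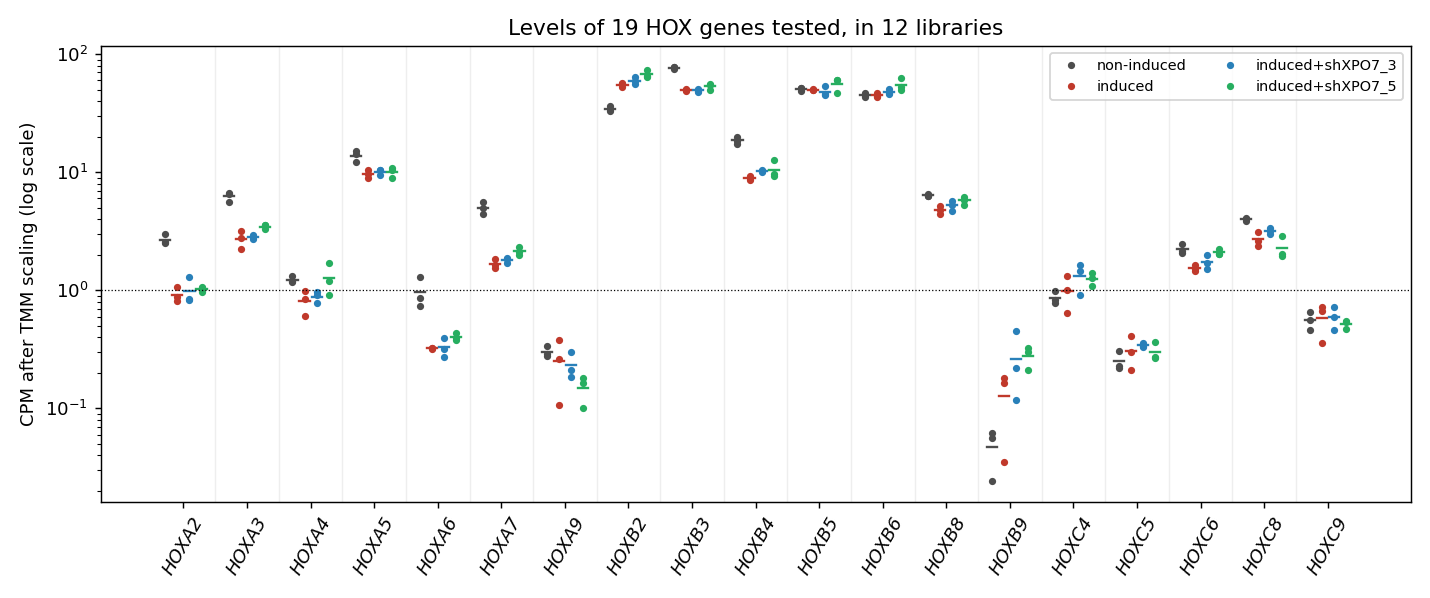
CPM after TMM scaling (log axis) of the 19 tested HOX genes in each of the 12 libraries, with a bar at each group's mean. The dotted line marks 1 CPM. The induced groups with and without an XPO7 hairpin sit together and apart from the non-induced group at HOXA2, HOXA3, HOXA7, HOXB2, HOXB3 and HOXB4.

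The proportions of HOXA and HOXB paralogs were compared in each library. Apart from HOXB2 and HOXA2, the genes paired here have annotated spans that overlap within their cluster, so their reads may not be separate. Per kilobase, HOXB2 exceeded HOXA2 by 12 to 15.2 times in the non-induced libraries and by 55.9 to 73.2 times in the induced libraries. HOXB6 exceeded HOXA6 by 18.2 to 29 times and then by 65.5 to 71.3 times. HOXB3 exceeded HOXA3 by 6.73 to 7.77 times and then by 9.2 to 12.5 times, and HOXB5 exceeded HOXA5 by 2.91 to 3.31 times and then by 4.0 to 4.64 times. For these 4 pairs the groups did not overlap (exact two-sided permutation test on the log ratio, p = 0.1 each, the smallest possible with 3 against 3). The HOXB4 to HOXA4 ratio, 6.06 to 7.95 and then 4.38 to 6.85, overlapped (p = 0.2 in the same exact permutation test). The ratio of the HOXB to the HOXA member was thus higher in every induced library for 4 of the 5 pairs.

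**Figure D4:**
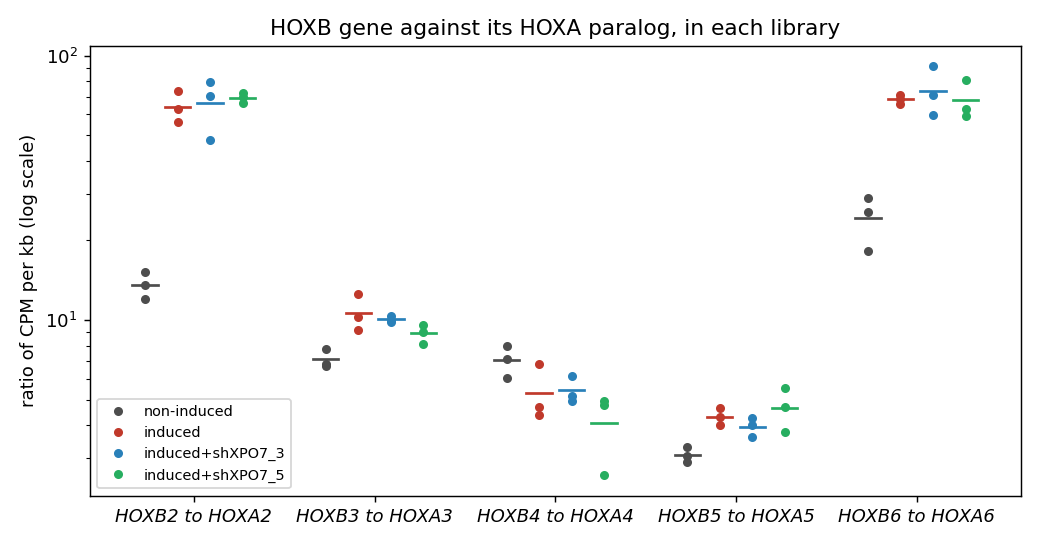
Ratio of the level per kilobase of a HOXB gene to that of its HOXA paralog (log axis) in each library, with a bar at each group's mean. HOXB2 to HOXA2 and HOXB6 to HOXA6 show the widest step between the non-induced and the induced groups, and the induced group overlaps each hairpin group at every pair.

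Neither XPO7 hairpin brought a HOX gene past the threshold against induced cells. With shXPO7_3, edgeR called 0 of 19, against 0.124% of all genes. None had an unadjusted p under 0.05, and DESeq2 also called 0. The groups did not overlap at 1 HOX gene, HOXB4, against 14.6% of all genes. The 3 with the smallest p were HOXB4, HOXC8 and HOXB9. HOXB9 passed the low-count filter only through hairpin libraries, so its place among them is no independent result. HOXB4 stood at 10.2, 10.4 and 10.1 CPM in shXPO7_3 cells, HOXC8 at 3.21, 3.38 and 2.98 CPM and HOXB9 at 0.219, 0.453 and 0.118 CPM. Their log2 fold changes against induced cells were 0.20 (SE 0.11), 0.22 (SE 0.15) and 0.82 (SE 0.55), with adjusted p of 0.959, 0.999 and 0.999. The intervals show what these libraries could limit. They ran from -0.062 to 0.28 for HOXB2, from -0.15 to 0.14 for HOXB3 and from -0.35 to 0.53 for HOXA2.

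With shXPO7_5, edgeR again called 0 of 19, against 0.589% of all genes, while 7 HOX genes had an unadjusted p under 0.05, as did 21.6% of all genes. DESeq2 called 1 HOX gene, HOXB2, and 450 of 31672 genes in all. The libraries of the groups did not overlap at 8 HOX genes, against 26.8% of all genes. HOXB9 is among the 8, and it passed the low-count filter only through hairpin libraries, so it is no independent result. HOXB2 stood at 65.7, 64.0 and 73.3 CPM in shXPO7_5 cells, HOXB6 at 52.5, 50 and 62.7 CPM and HOXC6 at 2.22, 2.02 and 2.05 CPM. All 3 lay above every induced library. Their log2 fold changes were 0.29 (SE 0.079, adjusted p = 0.11), 0.30 (SE 0.088, adjusted p = 0.135) and 0.44 (SE 0.14, adjusted p = 0.152). For HOXB2 this is the direction of its rise on induction, and for HOXC6 it is opposite to the fall. Without shXPO7_5 replicate A, 5 HOX genes were called, all higher (HOXB2, HOXB5, HOXB6, HOXB8 and HOXA4), while the share of all genes called went from 0.589% to 23% (10.3% higher). Libraries also differed in their trend with GC content, which is high in HOX genes (median 54.9%, against 48.8% over all genes tested). Across genes, the log ratio to the induced mean correlated with GC content at a Spearman rho of 0.65, 0.12 and 0.81 in shXPO7_5 replicates T, A and B and 0.61, -0.37 and -0.27 in shXPO7_3 replicates T, A and B. With GC content and length corrected for, 0 HOX genes were called against induced cells with either hairpin, and the median log2 fold change with shXPO7_5 went from 0.28 to 0.12. The part of this trend in single genes was not tested.

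**Figure D5:**
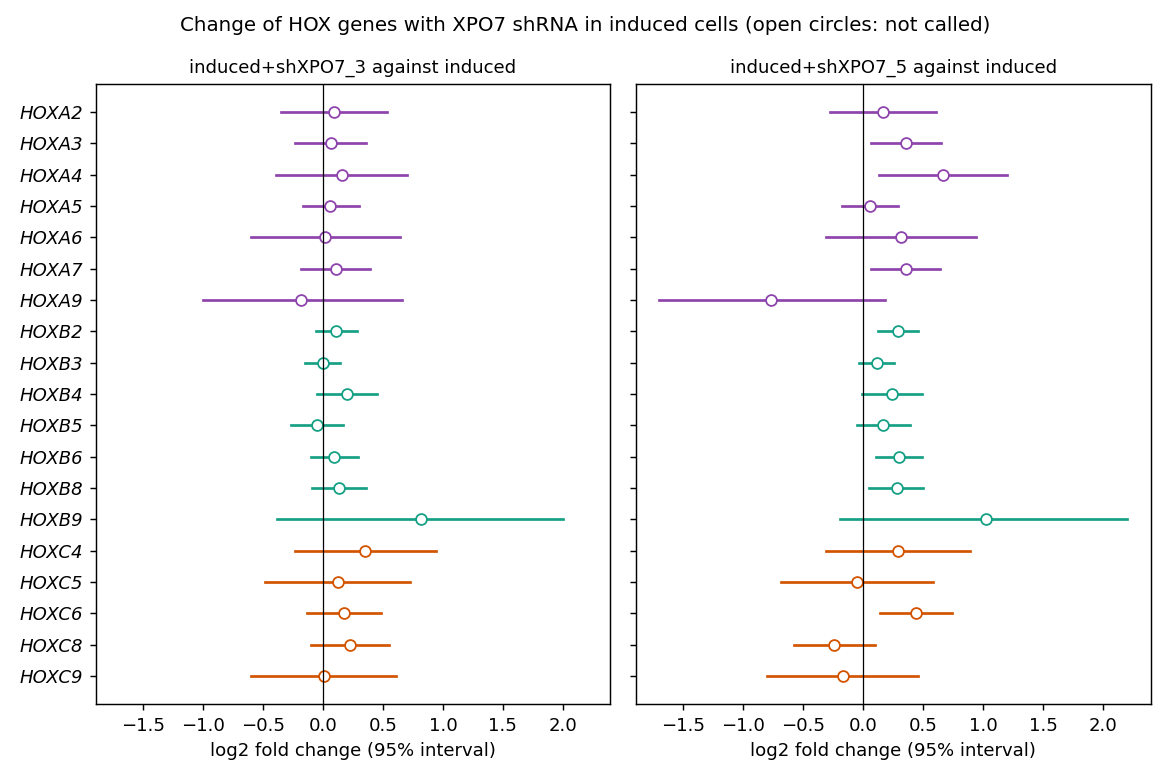
Log2 fold change of the 19 tested HOX genes in each XPO7 hairpin group against induced cells, with 95% intervals from edgeR. All circles are open, since no gene reached adjusted p under 0.05, and 7 intervals in the shXPO7_5 panel lie wholly above 0.

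Between the hairpins, edgeR called 0 of 19 HOX genes, against 0.0131% of all genes. There were 4 with an unadjusted p under 0.05, against 11.9% of all genes, and DESeq2 called 0. HOXC8 had the smallest p, with 2.05, 1.96 and 2.87 CPM in shXPO7_5 against 3.21, 3.38 and 2.98 CPM in shXPO7_3 cells (log2 fold change -0.46, SE 0.15, adjusted p = 0.388). HOXB2 and HOXB6 came next, at log2 fold changes of 0.18 and 0.20 (SE 0.079 and 0.088, adjusted p = 0.388 for both).

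Against non-induced cells the hairpin groups gave many of the calls of the induced cells, with which they share the non-induced libraries. Of the 19 HOX genes tested, 16 had the same outcome with shXPO7_3 and 14 with shXPO7_5. HOXC8 was not called by edgeR with shXPO7_3 (adjusted p = 0.0824). With shXPO7_5, HOXB8 (adjusted p = 0.291) and HOXC6 (adjusted p = 0.632) were not called. With shXPO7_3, 2 HOX genes were higher (24.5% of all genes) and 9 lower (26.2%). With shXPO7_5, 3 were higher (25.3%) and 8 lower (27%). HOXB2 stood at 64.2, 59.4 and 55.3 CPM in shXPO7_3 cells, so that all 9 libraries given 4OHT exceeded the 3 non-induced ones. HOXA2, HOXA3, HOXA5, HOXA6, HOXA7, HOXB3 and HOXB4 were lower in both. HOXA7 stood at 1.87, 1.69 and 1.85 CPM with shXPO7_3 and at 2.12, 1.99 and 2.32 CPM with shXPO7_5. HOXB9 was called higher in both hairpin groups, at 0.263 and 0.281 CPM against 0.0476 CPM (log2 fold change 2.33, SE 0.69, adjusted p = 0.0138, and 2.53, SE 0.69, adjusted p = 0.0087). HOXB9 had 5 counts in all in the 3 non-induced libraries. It passed the low-count filter only through shXPO7_3 replicate A (0.453 CPM) and shXPO7_5 replicates T and B (0.303 and 0.327 CPM). HOXB9 was thus tested only because it was high in hairpin cells, so its calls, counted among the 2 and 3 higher, are no independent result. Only 1 HOX gene was called higher with shXPO7_3 without non-induced replicate A or without shXPO7_3 replicate A, and only 1 with shXPO7_5 without its replicate B. HOXB6 was called higher with shXPO7_5 (0.29, SE 0.088, adjusted p = 0.0162), but in only 10 of 15 alternative analyses (adjusted p up to 0.0994), and HOXA4 was called with neither hairpin. Of the 9 lower with shXPO7_3, HOXC6 (adjusted p = 0.0452) and HOXB8 (adjusted p = 0.0365) were called in 4 of 15 alternative analyses each.

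The partner genes and the cluster's non-coding RNAs were read from lists, with counts of calls in induced against non-induced cells, to be read against the 50.9% of all genes called there. Of 8 HOX cofactors tested, 3 fell and none rose (median log2 fold change of the 8 -0.16). MEIS2, a DNA-binding partner of HOX proteins, went from 52.4 to 21.1 CPM (log2 fold change -1.31, SE 0.098, adjusted p = 2.94e-07). MEIS1 went from 77.1 to 49.7 CPM and PBX4 from 0.497 to 0.168 CPM. PBX4, counted among the 3 that fell, could not have passed the low-count filter on the induced libraries alone. It was tested because it was higher in other groups, so its fall is no independent result. Of the long non-coding RNAs in the clusters, 5 were tested (median -0.88) and 4 fell: HOXA-AS2 (-1.12), HOXA-AS3 (-1.5), HOXB-AS1 (-0.88) and HOXB-AS3 (-0.64). They overlap or adjoin HOX genes on the other strand, and the strand setting of the counting is not stated, so their reads and those of the HOX genes may not be separate. Of 10 neighbours outside the clusters (median 0.033), 1 rose (CALCOCO2, 0.61) and 1 fell (CBX5, -0.56).

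Other position genes moved in both directions. All 7 lung mesenchyme factors were called on induction, 2 higher and 5 lower (median -0.65). Of all genes tested, 50.9% were called there, 24.8% higher and 26.1% lower. TBX4, a factor of lung and hindlimb mesenchyme, went from 5.14 to 1.24 CPM (log2 fold change -2.05, SE 0.22, adjusted p = 6.69e-06), and its relative TBX5 from 31.5 to 16.9 CPM (-0.90). TCF21 fell by 0.84 on the log2 scale, and FOXF1 rose by 0.70, from 141 to 228 CPM. Of 25 position factors of other body sites, 6 passed the filter, 2 rose and 1 fell (median 0.25). These were MSX1 (0.73), MSX2 (0.63) and PITX1 (-1.04). Against induced cells, 1 of the 6, PITX1, was higher with shXPO7_5, by 0.82 (SE 0.12, adjusted p = 0.0164). With that hairpin 0.589% of all genes were called. No lung mesenchyme factor was called with either hairpin.

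Chromatin regulators and retinoid genes, which act on HOX clusters in development, were the last lists. Of 23 chromatin regulators tested, 1 rose and 5 fell (26.1% called, against 50.9% of all genes, median -0.08). EZH2, the Polycomb methyltransferase, went from 26.7 to 8.15 CPM (log2 fold change -1.71, SE 0.092, adjusted p = 1.36e-08) and CBX2 from 7.77 to 2.44 CPM (-1.67). KDM6B, a demethylase of the Polycomb mark, went from 20.8 to 42.8 CPM (1.04, SE 0.11, adjusted p = 8.88e-06), and EZH1 fell by 0.60. Of 12 retinoid genes tested, 6 rose and 4 fell (median 0.56), while 24.8% of all genes rose and 26.1% fell. DHRS3 went from 4.99 to 14.8 CPM (1.57), RARB from 0.192 to 1.14 CPM (2.45), STRA6 from 0.074 to 0.514 CPM (2.71) and CYP26B1 from 0.0471 to 0.868 CPM (4.16). RARB, STRA6 and CYP26B1, among the 6 that rose, could not have passed the low-count filter on the non-induced libraries alone. They were tested because they were high in groups given 4OHT, so their rises, counted in the 6 and in the median, are no independent result. In non-induced cells STRA6 and CYP26B1 lay close to the floor of 0.0275 CPM, so the sizes of their rises are uncertain. STRA6, the retinol-binding protein receptor, was also higher in shXPO7_5 than in induced cells (1.65, SE 0.28, adjusted p = 0.0263). In that comparison 0.589% of all genes were called.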

How the data were processed

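The authors sequenced 12 mRNA libraries (3 in each of 4 groups), made with a stranded kit. Per the labels, CASAVA 1.8.4, TopHat2 2.0.11 and featureCounts 1.18.0 were used with hg19 or GRCh37. The sources used here do not give the annotation, strand setting or treatment of reads that fit several genes. The authors deposited raw counts for 62069 genes, with no symbols. The 92 spike-in entries held no counts. Symbols, lengths and GC content were matched by Ensembl identifier to GENCODE v29 and a names table, which named 49517 genes. An identifier without a name was not used.

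Counts were tested with edgeR 4.0.16 (R 4.3.3) in 1 quasi-likelihood fit over all 12 libraries, with TMM factors, filterByExpr (15284 genes kept) and Benjamini-Hochberg adjustment over all genes tested. DESeq2 1.42.0 was an alternative, as were other scalings, filters, a correction for GC content and length, a replicate block, fits to only the groups compared, a fold change threshold and leaving out each library. The sources used here name gene set enrichment analysis for these data, and no test of single genes. Scripts were tested on simulated data. Total counts per library ran from 28534141 to 60397769, which limits precision for genes under about 1 CPM. Intervals and limits cover counting error or the fit only. Libraries of a group differed by far more than sampling noise, at 4.27 or more chi-square units per gene.

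The HOX genes and all lists were chosen with earlier results of these data known. Some genes of the HOX family and of the lists are not reported here, and were left out of every count, sum, median and figure of the 38 HOX genes and the lists, though not of the fit. Values in each library are given for HOX genes called in a comparison of induced or hairpin cells with their reference, and otherwise for the 3 with the smallest p. Other genes are named only from the lists, at most 4 called members of each by size of change, and XPO7 as the check of the knockdown.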

Additional observations from a re-analysis of the deposited data

How the results depend on the processing

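Of the 12 HOX genes called in induced against non-induced cells, 12 kept their direction and 9 their call under every change of scaling, filter, tool, libraries and correction in which they were tested. HOXC6 (adjusted p up to 0.0738) and HOXB8 (up to 0.0614) lost it once each, under the GC correction with the block, and HOXA4 in most. Upper-quartile scaling moved the median of all genes by -0.10 on the log2 scale in that comparison. Calls also required to reach an absolute log2 fold change of 1 numbered 0 higher and 5 lower in induced, 1 and 4 in shXPO7_3 and 1 and 3 in shXPO7_5 against non-induced cells. The 1 higher in each hairpin group was HOXB9, which was tested only because it was high in hairpin cells. DESeq2 called 1 HOX gene in shXPO7_5 against induced cells. In shXPO7_3 against non-induced cells, 4 were higher with the GC correction, in place of 2 (35.7% of all genes, in place of 24.5%), and 1 with the filter of 1 CPM in 6 libraries or with only the 2 groups fitted. Leaving out 1 library at a time gave 0 to 5 calls in shXPO7_5 against induced cells, with 5 only without shXPO7_5 replicate A, where 23% of all genes were called in place of 0.589%, 1 to 4 higher in shXPO7_5 against non-induced cells, with 1 only without shXPO7_5 replicate B, and 1 to 3 higher in shXPO7_3 against non-induced cells, with 1 without non-induced or shXPO7_3 replicate A. The other counts stayed within 1.5 times, and the causes of these changes were not tested. Whether the replicate letters pair the samples could not be settled. After each group's mean was removed, same-letter correlations between libraries ran from -0.44 to 0.71. Those between different letters ran from -0.76 to 0.72, a similar range. With the letter as a replicate block, induced against non-induced cells gave 1 higher and 10 lower, and no HOX gene was called with either hairpin against induced cells. Depth limits the genes under 1 CPM, such as HOXA9, HOXB9 and HOXC5.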
